A study of Caenorhabditis elegans with 4 samples.

Results

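The clec genes of *C. elegans* encode proteins with a C-type lectin-like domain, and they were described here in worms kept for 14 days with or without remofuscin. A probe was taken as a clec probe where its identifier led to a gene symbol starting with clec-. The rule found 364 probes for 243 clec genes, of 43603 probes and 19816 named genes on the array. The gene table holds 264 clec genes, of which 25 are pseudogenes, and 21 had no named probe. Among the 243 genes were 18 pseudogenes. No probe sequence was compared here, so that binding of 1 probe to several similar clec transcripts was not assessed.

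Wild-type worms (N2) were placed as 1-day adults on plates seeded with *E. coli* OP50 at 25 °C. The plates held 0 µM remofuscin (NC) or 200 µM remofuscin (soraprazan, a small molecule), and total RNA of whole worms was taken after 14 days. Each of 2 experiments supplied 1 array per group, so that each group had 2 arrays. The texts of the series give about 350 and about 600 worms per concentration. All 4 were one-colour arrays on 1 slide, and the 75th percentile of the signal of each array lay between 603 and 786 before scaling.

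C-type lectin-like domains are folds that in many proteins bind sugars, some of them with calcium. In *C. elegans* the family is very large, and many members carry a signal for secretion and are made in the intestine. Sets of clec genes change when worms meet bacterial pathogens, in part through the p38 kinase PMK-1, and they are therefore often read as effectors of innate immunity. A few members have other work, such as clec-87 and clec-88, which encode core proteins of chondroitin proteoglycans (CPG-5 and CPG-6).

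A smaller share of clec genes than of all genes was detected in worms after 14 days. A gene was read from its brightest probe, and it counted as detected where the image software marked that probe as well above background. On the NC arrays, 118 (48.6%) clec genes were detected in experiment 1 and 113 (46.5%) in experiment 2. With remofuscin, 107 (44.03%) and 106 (43.6%) were detected. Over all named genes, detection was 74.3% and 73.6% in NC and 73.1% and 70.9% with remofuscin. All 4 shares of the clec genes thus lay below all 4 shares over named genes.

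**Figure D1:**
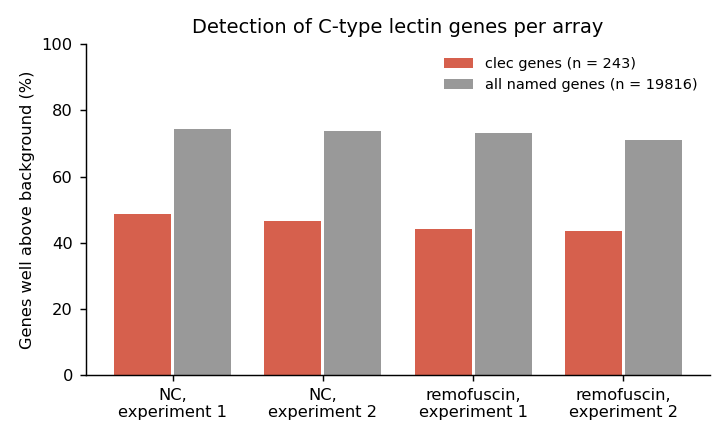
Bars give the share of genes whose brightest probe was well above background (vertical axis, percent) on each of the 4 arrays, for 243 clec genes and 19816 named genes. The clec genes lie between 43.6% and 48.6% and all named genes between 70.9% and 74.3%.

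On all 4 arrays together, 95 clec genes (39.1%) were detected, against 68.3% of all named genes. No array detected 113 clec genes (46.5%, against 22.3% of named genes), and 15 were detected on 1 array only (6.17%, against 3.21%). Among the clec genes without detection were clec-38, a gene of axon outgrowth, clec-39, which has been linked to defence against *Serratia marcescens*, clec-61, clec-70 and clec-82. No named probe was found for clec-85, a target of PMK-1 signalling. The count rests on the mark used. By the weaker mark of a positive and significant signal, 182 clec genes (74.9%, against 86.5% of named genes) were detected on at least 2 arrays. By the stricter mark 115 were (47.3%, against 74.5% of named genes). The clec share was thus lower by both marks, but nearer to that of all named genes by the weaker one.

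The tests below cover the 115 clec genes (47.3% of 243) whose brightest probe was well above background on at least 2 arrays, and 4 of them are pseudogenes. The other 128 were not tested. A gene can enter through its higher group alone, and such a gene had to differ between the groups. Whole worms were measured, so that fewer cells expressing a gene and less of its RNA per cell cannot be told apart.

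Most of the tested clec genes gave low signals. Signals are given after scaling, as the linear value at the mean 75th percentile of the arrays, and the geometric mean over 4 arrays ran from 10.7 to 90995 with a median of 93.8. For all tested genes the median was 368. Signals of different probes depend on how each probe binds and give no order of transcript amounts. A mean over 1000 was reached by 19 clec genes and a mean over 100 by 53.

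The highest signal belonged to clec-87, with 96885 and 90069 in NC and 88241 and 89036 in remofuscin-treated worms (experiments 1 and 2 in this order, here and below). Its remofuscin values were below both NC values, yet by only 0.08 on the log2 scale (SE 0.37), which was inside the error of the fit. For clec-88 the signals were 53968 and 44778 in NC and 58319 and 47427 with remofuscin, and the groups overlapped. Both genes were measured with several probes, and the differences of the 6 probes for clec-87 spanned -0.08 to 0.02. The germ line and embryo markers, which include oocyte genes such as oma-1 and rme-2, were all detected on all 4 arrays (10 of 10).

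Of the next 6 genes by signal, none passed the limits for treatment used below. The gene clec-146 gave 46532 and 24584 in NC and 32436 and 27647 with remofuscin. Its NC arrays thus lay farther apart than its treated arrays did. For clec-91 the signals were 31143 and 21988 in NC and 28664 and 22543 with remofuscin. For clec-65 they were 20268 and 16258 against 23453 and 15050, and for clec-50 18875 and 15388 against 21148 and 18389. The gene clec-63 gave 10234 and 17572 in NC and 11185 and 15014 with remofuscin, so that experiment 2 was higher in both groups. In these 5 genes the NC and remofuscin values overlapped.

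Beside clec-87, clec-190 was the only one of the 8 genes with the highest signals whose groups did not overlap. It gave 11402 and 5738 in NC and 17300 and 12324 with remofuscin, a fitted difference of 0.85 on the log2 scale (SE 0.46, limma unadjusted p = 0.0987, adjusted p = 1). With experiment as a block its adjusted p was 0.0337 in limma. That fit gives every probe the same spread, so that this p follows the size of the difference alone and measures no spread of clec-190.

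Remofuscin-treated worms were then compared with NC. The limits were those of the study's methods, an unadjusted p under 0.05 and a change of at least 2-fold, and p-values were adjusted over all 29095 tested probes by Benjamini and Hochberg's method. Past these limits, 4 clec genes were higher in remofuscin-treated worms (3.48% of 115, background 2.23% of all tested genes) and 6 were lower (5.22%, background 0.894%). At an adjusted p under 0.05, 1 clec gene was lower (background 0.0745%) and 0 were higher (background 0.474%). At an unadjusted p under 0.05 alone, 12 clec genes were called (10.4%, background 3.55%). In the fit with experiment as a block, 15 clec genes were higher (background 3.72%) and 8 lower (background 1.88%) at an adjusted p under 0.05. That fit keeps 1 residual degree of freedom and gives every probe the same spread. Its p for a clec gene, here and below, thus follows the size of the difference alone and measures no spread of that gene.

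The lower genes were clec-94, clec-10, clec-2, clec-43, clec-113 and clec-153. They are the same 6 genes that were well above background on both NC arrays and on neither array of remofuscin-treated worms. They could enter the test only through NC, so that their count had to show a difference. Of all named genes, 202 (1.02%) had this pattern and 77 (0.389%) the opposite one, with detection on both remofuscin arrays only. The clec genes had 6 (2.47%) and 1 (0.412%). The lowest signal of any probe marked well above background was 4.93 (experiment 1) and 4.41 (experiment 2) in NC. With remofuscin it was 13.2 and 9.45. Each is the value of a single probe and no level of detection, since higher signals were also left unmarked. Examples are clec-238 with 15.2 in NC of experiment 1 and clec-113 with 18.8 with remofuscin in experiment 2. The part of this gap in the 6 lower genes was not tested.

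The largest fitted fall was in clec-94. Its signals were 40.96 and 25.9 in NC and 4.09 and 5.04 with remofuscin, and both treated values lay far below both NC values. The fitted difference was -2.84 on the log2 scale (SE 0.41, limma adjusted p = 0.0298). As the gene entered the test only through NC, this p gives no independent support for a fall. Because the treated values are not well above background, the size of the fall is uncertain. With dim signals replaced, the gene was 2.91-fold lower. For this value the NC mean was set against a treated mean with replaced signals. Each dim signal was replaced by its array's lowest signal well above background, where this was higher. Signals above that level could also be unmarked, so that such a value is no lower bound.

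The other lower genes stood at similar low signals. For clec-10 they were 33.7 and 21.3 in NC and 7.64 and 6.49 with remofuscin (limma adjusted p = 0.173). With dim signals replaced in the same way, clec-10 was 2.40-fold lower. For clec-2 the signals were 25.1 and 17.1 against 8.78 and 3.47 (limma adjusted p = 0.449), 1.85-fold lower with dim signals replaced. In both genes the highest treated value lay below the lowest NC value.

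For clec-43 the signals were 34.2 and 41.6 in NC and 11.8 and 15.2 with remofuscin (limma adjusted p = 0.398). With dim signals replaced, clec-43 was 2.66-fold lower. For clec-113 the signals were 38.2 and 40.6 against 11.2 and 18.8 (limma adjusted p = 0.552), 2.50-fold lower with dim signals replaced. For clec-153 they were 23.0 and 21.4 against 10.1 and 10.4 (limma adjusted p = 0.881), 1.90-fold lower with dim signals replaced. A second measured probe of clec-153 gave -1.44 on the log2 scale beside -1.12. The 5 genes after clec-94 did not pass the adjustment over all probes. With experiment as a block they did, with limma adjusted p from 8.65e-11 (clec-10) to 0.00122 (clec-153). These p restate the size of the differences, as that fit gives every probe the same spread. All 5 genes also entered the test only through NC, so that neither fit gives independent support for a fall.

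None of the 6 lower genes passed the limits after another background correction (normexp with an offset of 50), under which clec-94 differed by -0.47 on the log2 scale. Among clec genes well above background on all 4 arrays, 0 of 95 were lower past the limits (background 0.229%) and 3 were higher (3.16%, background 1.67%). With 1 array left out, the treatment fit keeps 1 residual degree of freedom and gives every probe the same spread. Only the differences are therefore given here. They ran from -3.17 to -2.51 on the log2 scale in clec-94, from -2.26 to -1.60 in clec-10 and from -2.58 to -1.24 in clec-2. For clec-43 the range was -1.68 to -1.31, for clec-113 -1.82 to -1.07 and for clec-153 -1.17 to -1.07. As these genes entered the test only through NC, differences kept with 1 array left out give no independent support for a fall.

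**Figure D2:**
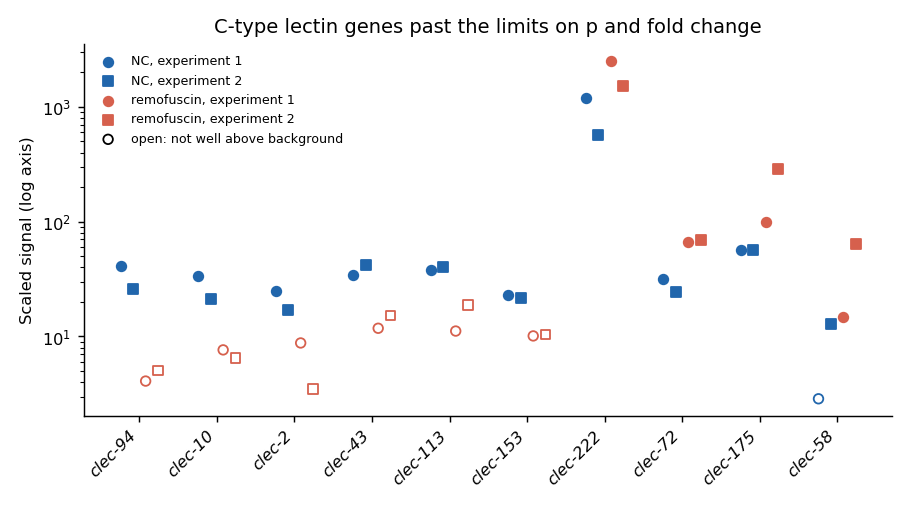
Points give the scaled signal (vertical log axis) on each of the 4 arrays for the 10 clec genes past the limits for treatment, ordered by fitted difference. Open points were not well above background. The 6 genes on the left have open points for both arrays of remofuscin-treated worms, and for clec-58 the NC point of experiment 1 is open.

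The genes that lay higher with remofuscin were clec-58, clec-175, clec-72 and clec-222. None passed the adjustment over all probes. With experiment as a block all 4 did, with limma adjusted p of 4.58e-16, 2.84e-07, 0.000113 and 0.000181 in this order. These p restate the size of the differences, as that fit gives every probe the same spread. The largest difference was in clec-58, with signals of 2.87 and 12.8 in NC and 14.8 and 64.3 with remofuscin. It was well above background on 1 of 2 NC arrays and on both treated arrays. The fitted difference was 5.10-fold (2.35 on the log2 scale, SE 0.83, unadjusted p = 0.0215 in limma), and the NC value of experiment 2 lay close to the treated value of experiment 1. The values come from 1 of 3 probes of clec-58, and the other 2 were well above background on no array, with signals of 5.88 and 3.62 on the array of remofuscin replicate 2 where this probe gave 64.3.

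For clec-175 the signals were 56.1 and 57.1 in NC and 99.6 and 290 with remofuscin (3.00-fold, unadjusted p = 0.0166 in limma). The difference was larger in experiment 2, with 2.34 on the log2 scale against 0.83 in experiment 1. Another probe of clec-175, well above background on 2 arrays, went the other way with -0.76. The probes disagree, and no direction is given for the gene.

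For clec-72 the signals were 32.0 and 24.6 in NC and 66.2 and 69.0 with remofuscin (2.41-fold, unadjusted p = 0.00981 in limma). For clec-222 they were 1200 and 568 against 2514 and 1516 (2.36-fold, unadjusted p = 0.0339 in limma). In both genes each treated value lay above each NC value. The gene clec-222 was the only one of the 10 with a mean signal above 1000. Its neighbour clec-223 gave 381 and 330 in NC and 426 and 490 with remofuscin, higher in both experiments by 0.16 and 0.57 on the log2 scale.

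The differences of these 4 genes were also read with 1 array left out. Such treatment fits give every probe the same spread, so that only the differences are given here. On the log2 scale clec-58 ran from 1.27 to 3.43 and clec-175 from 0.82 to 2.36. For clec-72 the range was 1.08 to 1.46 and for clec-222 0.70 to 1.78. All 4 thus kept their sign, and clec-175 and clec-222 reached values below 2-fold.

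Among the markers of other tissues, those of the hypodermis moved most with treatment. Their summed signal was 2800 and 3656 in NC and 9886 and 10801 with remofuscin. Of 8 genes, 6 were tested and 4 were higher past the limits (background 2.23%), the cuticle collagens col-19, dpy-7, dpy-13 and rol-6. Without col-19 the sums were 1369 and 2505 against 2214 and 3567, which overlap. The transcription factor gene lin-26 of this list differed by -0.02 and -0.11 on the log2 scale. Of the same list, bli-1 was detected on no array. The body wall muscle list summed to 8159 and 5454 in NC and 14657 and 12753 with remofuscin. Of its 6 genes, 1 was higher past the limits (background 2.23%), the troponin gene unc-27. Without unc-27 the sums were 639 and 1249 in NC and 845 and 1394 with remofuscin, which overlap. The intestine list, with all 10 genes detected on all 4 arrays, summed to 35532 and 53639 in NC and 43527 and 55963 with remofuscin. Of its genes, 0 passed the limits (background 2.23% higher and 0.894% lower). With shares this small, 0 of 10 is no result about the list. The part of these shifts in the values of the clec genes was not tested.

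The 115 tested genes were next set side by side in both experiments. In 48 genes remofuscin-treated worms were higher in both experiments (41.7%, background 29.0%), in 34 lower in both (29.6%, background 31.0%), and in 33 the experiments went opposite ways (28.7%, background 40.0%). The median difference was 0.01 on the log2 scale in experiment 1 and 0.21 in experiment 2, against -0.03 and 0.03 over all tested genes. In the fit over both experiments the median of the clec genes was 0.09, against 0.00 over all tested genes, with 68 of 115 above 0 (59.1%, background 50.1%) and 47 below (40.9%, background 49.9%). Without NC replicate 2 this median was -0.04, so that its sign rested on 1 library.

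**Figure D3:**
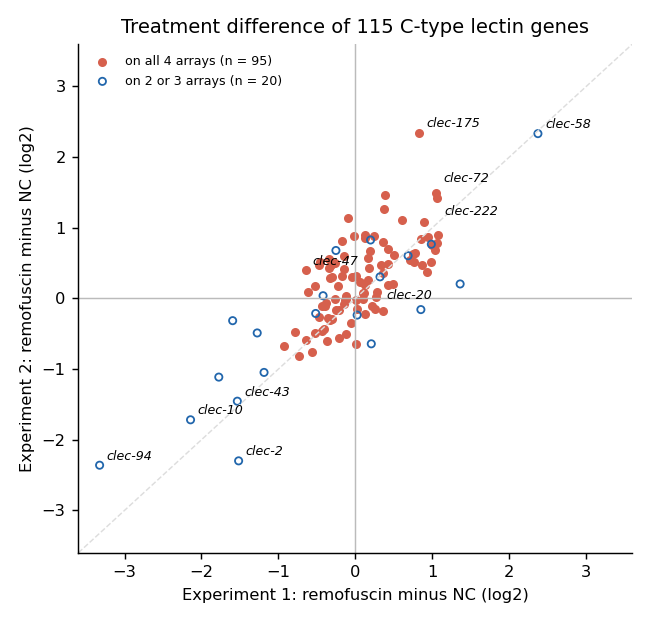
Each point is 1 of 115 tested clec genes, with remofuscin minus NC on the log2 scale in experiment 1 (horizontal axis) and experiment 2 (vertical axis). Filled points were well above background on all 4 arrays (n = 95) and open points on 2 or 3 arrays (n = 20). The 6 lower genes past the limits are open points in the lower left, and clec-58 lies at the upper right at 2.37 and 2.33.

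A difference of at least 2-fold in both experiments was seen in 3 higher genes (2.61%, background 1.87%) and 6 lower genes (5.22%, background 0.637%). The higher ones were clec-58 (2.37 and 2.33 on the log2 scale), clec-222 (1.07 and 1.42) and clec-72 (1.05 and 1.49). The lower ones were the 6 genes found above, whose treated values are not well above background. The groups did not overlap in 27 higher genes (23.5%, background 9.43%) and 21 lower genes (18.3%, background 11%). The lower ones include the 6 genes that entered the test only through NC. The higher ones include clec-184, which entered only through remofuscin. Such genes had to differ between the groups, so that their part of these counts gives no support for a change.

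The genes clec-51 and clec-53 were past 2-fold in 1 experiment each and short of it in the other. For clec-51 the signals were 197 and 120 in NC and 414 and 223 with remofuscin, and its log2 differences were 1.07 and 0.90. Its neighbour clec-52 went the other way, with 469 and 309 in NC and 368 and 255 with remofuscin (-0.35 and -0.28 on the log2 scale). For clec-53 the signals were 90.0 and 60.6 in NC and 167 and 128 with remofuscin (0.90 and 1.08 on the log2 scale, unadjusted p = 0.0394 in limma). This gene and clec-66, with 1744 and 1459 in NC and 3342 and 2658 with remofuscin (1.87-fold, unadjusted p = 0.0452 in limma), were under the limit on p but not past the limit on fold change. With experiment as a block, clec-51 (0.00736), clec-53 (0.00687) and clec-66 (0.0198) had a limma adjusted p under 0.05.

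Among the genes chosen for a role known from other work, clec-43 passed the limits, with the values given above. The others that were tested were well above background on all 4 arrays, differed by less than 2-fold in the fit and did not pass the limits. The gene clec-17 gave 263 and 198 in NC and 474 and 354 with remofuscin, a difference of 0.85 and 0.84 on the log2 scale. For clec-67, a target of PMK-1 signalling, the signals were 445 and 512 in NC and 762 and 798 with remofuscin (0.78 and 0.64). In both genes the groups did not overlap, yet the limma adjusted p was 1 for each. With experiment as a block, clec-17 had an adjusted p of 0.0374 in limma and clec-67 was not called.

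The gene clec-60, which is induced in the intestine by *Staphylococcus aureus*, gave 146 and 196 in NC and 109 and 142 with remofuscin (-0.43 and -0.46 on the log2 scale). Its 3 measured probes lay between -0.47 and -0.43. For clec-41, studied in infection with *Bacillus thuringiensis*, the signals were 7671 and 9988 in NC and 5960 and 6569 with remofuscin (-0.36 and -0.60). For clec-60 and clec-41 both treated values were thus below both NC values, and neither difference passed the limits (unadjusted p = 0.288 and 0.239 in limma).

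For clec-49, which has been linked with clec-39 to defence against *S. marcescens*, the signals were 64.02 and 53.2 in NC and 107 and 82.2 with remofuscin. For clec-4 they were 65.9 and 81.3 against 82.7 and 113, and for clec-42 21.2 and 26.1 against 25.8 and 27.8. All 3 were higher in both experiments, clec-49 by 0.75 and 0.63 on the log2 scale with groups that did not overlap, clec-4 by 0.33 and 0.48, and clec-42 by 0.28 and 0.09. None of the 3 passed the limits.

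For clec-86 the signals were 484 and 284 in NC and 530 and 513 with remofuscin. For clec-71 they were 85.5 and 128 against 78.7 and 89.9, and for clec-7 71.5 and 61.1 against 59.4 and 60.6. The gene clec-86 was higher in both experiments, by 0.13 and 0.85 on the log2 scale, and clec-71 and clec-7 lower in both, and none of the 3 passed the limits.

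Regulators upstream of intestinal defence genes were read from a list of 40 genes, of which 39 had a probe and all 39 were tested. None passed the limits for treatment (0 of 39, background 2.23% higher and 0.894% lower). At the adjusted p there were 0 as well (background 0.474% higher and 0.0745% lower). With shares this small, 0 of 39 is no result about the regulators. Their median difference was -0.21 on the log2 scale, with 8 of 39 above 0 (background 50.1%), 2 higher in both experiments (background 29.0%) and 24 lower in both (background 31.0%). The p38 kinase gene pmk-1 gave 935 and 1129 in NC and 973 and 782 with remofuscin. Its upstream kinase gene sek-1 gave 247 and 447 in NC and 240 and 294 with remofuscin. The transcription factor gene atf-7, a substrate of PMK-1, gave 581 and 1204 against 582 and 782. In these 3 genes the difference lay almost wholly in experiment 2. The intestinal GATA factor gene elt-2 gave 211 and 206 in NC and 210 and 210 with remofuscin.

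Many clec genes lie next to each other in the genome. Taking clec genes as neighbours where at most 2 other protein-coding genes lie between them, 178 of the 264 genes fell into 52 runs, and the largest run held 15. In 22 runs at least 2 members were tested, and in 10 of these all tested members had the same direction by the fit. Only 6 runs had 3 or more tested members. No share for other genes is set beside this count, so that it tells nothing about an effect of position.

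The run from clec-67 to clec-79 had the most tested members, with 9 of 13. Of these, 5 were higher with remofuscin in both experiments (clec-67, clec-69, clec-174, clec-72 and clec-74), 3 were lower in both (clec-71, clec-73 and clec-79) and clec-75 went opposite ways. The gene clec-69 gave 218 and 256 in NC and 371 and 366 with remofuscin. The gene clec-79 gave 155 and 149 in NC and 99.8 and 98.6 with remofuscin. Both had arrays that separated by group, in opposite directions within 1 run, and of the 9 genes only clec-72 passed the limits.

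In the run of clec-57, clec-56, clec-54 and clec-55, 3 of 4 tested genes were higher in both experiments. The gene clec-57 gave 62.8 and 35.3 in NC and 128 and 56.9 with remofuscin, with an overlap between the groups. In the run of clec-2 and clec-3 both were lower in both experiments. The gene clec-3 gave 178 and 126 in NC and 93.1 and 79.1 with remofuscin, well above background on all 4 arrays, with a fitted difference of -0.80 (SE 0.39, unadjusted p = 0.0736 in limma). In the run from clec-40 to clec-33, with 15 members, 4 were tested and 3 of these went opposite ways in the experiments.

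**Figure D4:**
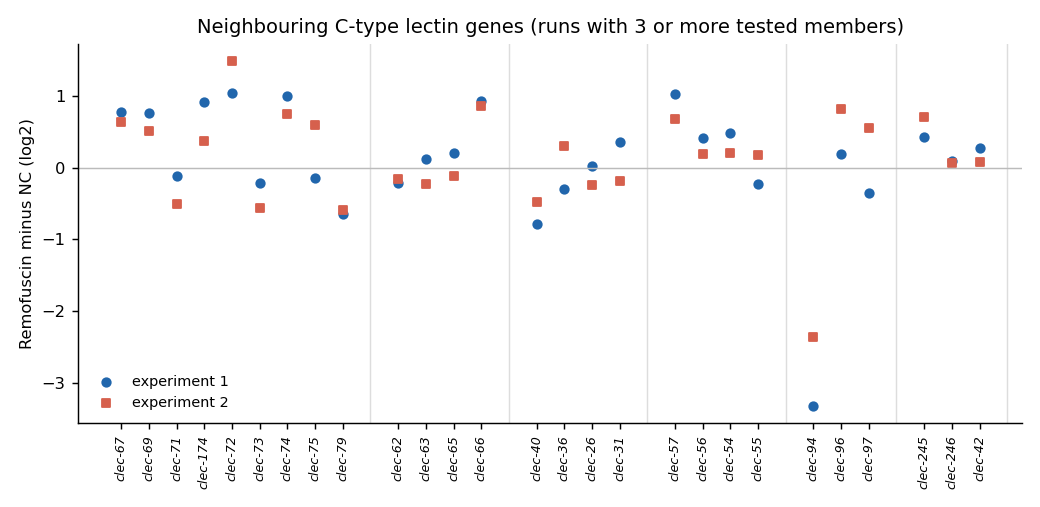
Points give remofuscin minus NC on the log2 scale (vertical axis) in experiment 1 (circles) and experiment 2 (squares) for the 6 runs of neighbouring clec genes with 3 or more tested members, in genome order within a run. The run from clec-67 to clec-79 (left) holds 5 genes above 0 and 3 below 0 in both experiments.

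Where a clec gene had several probes, they mostly agreed in direction. Of 26 genes with at least 2 measured probes, 19 had all probes on 1 side of 0 for treatment. No share for other genes was set beside this count, so that it tells nothing particular to the clec genes. The median range between probes was 0.16 on the log2 scale and the largest 2.35, in clec-175.

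The gap between the experiments was read next, as experiment 2 minus experiment 1 over both groups. At the limits above, 4 clec genes were higher in experiment 2 (3.48%, background 3.18%) and 1 was lower (0.870%, background 2.17%). At an adjusted p under 0.05 in limma there were 0 in either direction (background 0.0% each), with 23 at an unadjusted p under 0.05 (20%, background 35.1%). With treatment as a block the adjusted p called 12 clec genes higher (background 12.7%) and 19 lower (background 24.1%). That fit too gives every probe the same spread. Among the called genes were clec-58, clec-20, clec-236, clec-216, clec-174, clec-57 and clec-161, which are described below.

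Clec genes leaned to lower values in experiment 2, as did all tested genes. The median gap was -0.28 on the log2 scale, against -0.24 over all tested genes, with 80 of 115 clec genes lower (69.6%, background 62.3%) and 35 higher (30.4%, background 37.7%). In 66 genes the gap was negative in both groups (57.4%, background 54.6%) and in 30 positive in both (26.1%, background 31.4%). In NC the median gap was -0.34 (all tested genes -0.26) and in remofuscin-treated worms -0.14 (all tested genes -0.18). Scaling by the median moved both, to -0.18 for clec genes and -0.14 for all. The experiments did not overlap in 17 clec genes that were higher in experiment 2 (background 25.9%) and 44 that were lower (background 46.4%).

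The size of the gap exceeded the size of the treatment difference in 65 of 115 clec genes (56.5%, background 76.5%). A gap of at least 2-fold was seen in 6 higher and 11 lower clec genes in NC (backgrounds 6.56% and 15.5%), and in 5 and 2 in remofuscin-treated worms (backgrounds 2.52% and 1.88%).

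**Figure D5:**
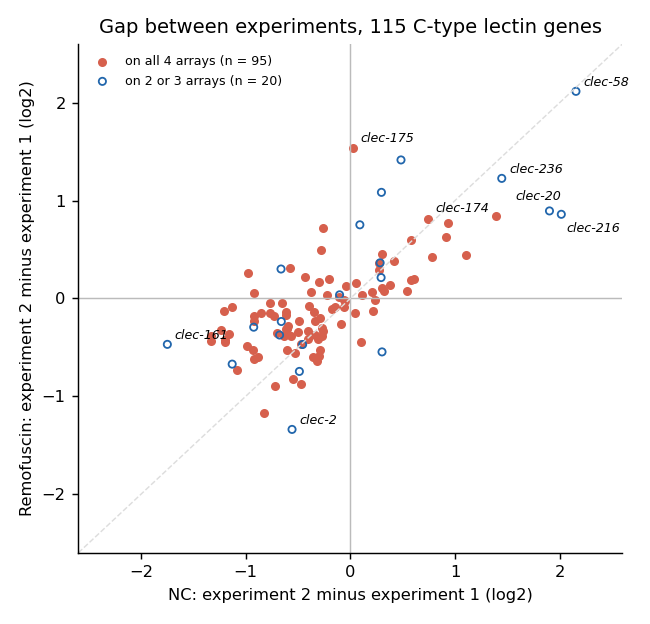
Each point is 1 of 115 tested clec genes, with experiment 2 minus experiment 1 on the log2 scale in NC (horizontal axis) and in remofuscin-treated worms (vertical axis). Filled points were well above background on all 4 arrays (n = 95) and open points on 2 or 3 arrays (n = 20). Points below 0 on both axes outnumber those above 0 on both, 66 against 30, and clec-58 lies at the upper right at 2.16 and 2.12.

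The largest gaps lay mostly in dim genes. In clec-58 experiment 2 was higher by 2.16 on the log2 scale in NC and 2.12 with remofuscin, nearly the same step as its treatment difference (unadjusted p = 0.0644 in limma). For clec-20 the signals were 10.99 and 41.1 in NC and 19.8 and 36.8 with remofuscin, a gap of 1.40 (SE 0.32, unadjusted p = 0.00421 in limma, adjusted p = 0.103). It was not well above background on the NC array of experiment 1.

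For clec-236 the signals were 5.40 and 14.7 in NC and 10.7 and 25.0 with remofuscin, with neither array of experiment 1 well above background. Another probe of clec-236 gave 15.1 and 9.64 in NC and 9.38 and 9.08 with remofuscin, and was well above background on the NC array of experiment 1 alone, so that no direction is given for the gene. For clec-216 they were 10.9 and 43.9 in NC and 27.9 and 50.6 with remofuscin, a gap of 1.44 (SE 0.44). Another probe of clec-216 gave 18.1 and 15.8 in NC and 12.4 and 7.38 with remofuscin, lower in experiment 2 in both groups, so that no direction is given for the gene. In these genes the gap was larger than the treatment difference. With 1 array left out an experiment holds 1 array, so that only the gaps are given here. They ran from 0.97 to 1.82 in clec-20, from 0.84 to 1.83 in clec-236 and from 0.76 to 2.12 in clec-216. In each of these genes the gap was below 2-fold without NC replicate 1, and in clec-236 (0.95) also without remofuscin replicate 2.

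The gene clec-174, in the run of clec-67, had the largest gap among genes on all 4 arrays. It gave 457 and 1202 in NC and 867 and 1556 with remofuscin, a gap of 1.12 (SE 0.35, unadjusted p = 0.0172 in limma). Both groups were higher in experiment 2, and within each experiment remofuscin was above NC, by 0.92 and 0.37 on the log2 scale. The gap passed the limits with all 4 arrays. With 1 array left out it ran from 0.66 to 1.58, and it was below 2-fold without NC replicate 1 (0.66) or remofuscin replicate 2 (0.93). In the other direction, clec-57 was lower in experiment 2 by 0.83 in NC and 1.17 with remofuscin on the log2 scale (unadjusted p = 0.0468 in limma). For clec-161 the signals were 52.2 and 15.5 in NC and 17.3 and 12.5 with remofuscin, where the NC array of experiment 1 stood above the other 3 arrays.

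The markers moved between the experiments as well. The germ line and embryo list was higher in experiment 2 in both groups, with a median gap of 0.74 on the log2 scale and summed signals of 133484 and 192023 in NC and 129132 and 163277 with remofuscin. The body wall muscle list had a median gap of 1.12 and the intestine list of 0.48. The regulators of defence genes had 0.59, with 6 of 39 higher past the limits (background 3.18%). The summed signal of the muscle list was lower in experiment 2 in both groups, against its median. Sperm, pharynx and hypodermis lists had median gaps of 0.20, 0.40 and 0.27, the neuron list -0.0011 and the coelomocyte list -0.28, the same as the clec genes. The part of the marker shifts in the gaps of the clec genes was not tested.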

How the data were processed

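Each array held whole-worm total RNA of N2 worms, labelled with 1 dye. The authors deposited the scanner output as intensity values, corrected for background within each array by Feature Extraction (version 11.5.1.1 in the submitters' headers). A deposited table of log2 values matched the scanner output, on that scale, to 0.01 for 99.94% to 99.97% of 43603 probes. It was thus unscaled between arrays and served as an alternative.

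Control spots and outlier spots (8 to 38 per array) were left out, and 0 spots were saturated. Duplicate spots were averaged, and each array's log2 intensities were set relative to their 75th percentile. The 29095 probes detected well above background on 2 or more arrays were fitted with limma 3.58.1 in R 4.3.3, on treatment or on experiment alone, with 2 residual degrees of freedom. Tests are two-sided. Their precision is limited by the number of arrays. Nothing in the sources used here says how the cultures of the experiments were separated, so that the p-values measure the spread between these samples.

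Experiment numbers come from the labels and pair the samples. Over 29061 probes the deviations of same-numbered arrays from their group means correlated with r = 0.74.

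Of the probes, 34325 (78.7%) took a gene name from a RefSeq table of assembly WBcel235, used for names and neighbours. The design of the array rests on an older build, so that no coordinates are given. Sequences were not used here.

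Genes were named by rule: the 8 with the highest signal, those past the limits (up to 8 each way), the 5 each way with the largest smaller difference of both experiments, the 6 with the largest gap, and those of known role. For the parts based on a difference, detection on both arrays of the higher group was required. Neighbours of these and clec-66, clec-57, clec-69, clec-79, clec-3 and clec-223 were chosen after their values were seen. The members and all lists were chosen with earlier results of these data known. The fit was tested on simulated data. Tables were made with Python 3.11.15, pandas 2.3.3, numpy 2.4.6 and matplotlib 3.10.9.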

Additional observations from a re-analysis of the deposited data

Results flagged for a closer look

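In 7 named genes the difference of remofuscin-treated worms from NC had opposite signs in the experiments. With 1 array per group in each experiment, the difference between experiments was not tested. It is given as the log2 difference in experiment 2 minus that in experiment 1. In clec-47 it was 1.05, from -0.65 to 0.40, with signals of 157 and 71.7 in NC and 100 and 94.5 with remofuscin. In clec-20 it was -1.01, from 0.85 to -0.16. In clec-146 it was 0.69, from -0.52 to 0.17. In clec-83 it was -0.66, from 0.01 to -0.65, with signals of 498 and 1072 in NC and 500 and 682 with remofuscin. The bright genes clec-63, clec-65 and clec-91 gave -0.36, -0.32 and 0.16. In clec-47, clec-146 and clec-83 the change lay mainly between the NC arrays.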

How the results depend on the processing

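The counts changed under some of the other settings. Of the 10 clec genes past the limits for treatment, 10 passed after scaling by the median, by quantiles, with an intensity trend, with outlier spots kept and with the replicate block. The count was 2 after normexp correction, 5 by the methods' t-test, 20 with no filter on dim probes and 3 with detection on all 4 arrays. It ranged from 6 to 25 when 1 array was left out (25 without NC replicate 1, 16 without NC replicate 2 and 6 without remofuscin replicate 1). The 1 gene at an adjusted p became 2 with median scaling, 4 with the deposited log2 values, 23 with the replicate block, and 0 with normexp, the t-test, the trend, no filter and detection on all 4 arrays, with 1 to 6 when 1 array was left out (5 without NC replicate 1, 6 without NC replicate 2 and 3 without remofuscin replicate 1). The median treatment difference lay between -0.037 and 0.24 when 1 array was left out, and 0 to 3 regulators of defence genes passed the limits (3 lower without NC replicate 1).

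For the gap, the 5 genes past the limits became 1 with normexp, 0 by the t-test, 12 with no filter, 2 with detection on all 4 arrays, 2 with the mean of all probes, and 6 to 12 when 1 array was left out. The 0 genes at an adjusted p became 12 with normexp, 6 with the deposited values, 31 with the replicate block, and 0 to 3 when 1 array was left out (3 without remofuscin replicate 1). Median gaps when 1 array was left out ran from -0.39 to -0.20, and the value with no filter was -0.041. The 115 genes detected became 182 with the weaker mark, and the 82 genes going 1 way in both experiments became 166 (111 higher, 55 lower) with no filter. The cause of these changes was not tested, apart from the larger or smaller number of genes under each filter.

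Among named genes, the treatment difference of clec-65 turned to -0.026 with quantile scaling and -0.015 with normexp, that of clec-87 to 0.0065 with quantile scaling, that of clec-91 to 0.0086 with normexp, and that of clec-216 to -0.15 with the mean of all probes. When 1 array was left out, differences crossed 0 for clec-20 (-0.61 to 1.30), clec-47 (-0.69 to 0.44), clec-63 (-0.44 to 0.34), clec-65 (-0.27 to 0.37), clec-83 (-0.88 to 0.23), clec-88 (-0.052 to 0.25), clec-91 (-0.29 to 0.21), clec-146 (-0.64 to 0.28), clec-174 (-0.050 to 1.35) and clec-216 (-0.23 to 1.79). Alternatives for the gap of single genes and for the regulators were added after seeing the data. A planned description of protein and promoter sequences was not run. Where a group kept 1 array, that array is assumed to vary like the other group. The treatment fits with 1 array left out also give every probe the same spread. So do the gap fits without NC replicate 1 or remofuscin replicate 1. Counts of genes from these fits thus follow the size of the differences alone.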
